A study of Mus musculus with 10 samples.

Results

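Cadherins, claudin-11, connexin 43 and their partners hold neighbouring cells together and let them exchange signals. The genes described here are 9 of the 18384 genes listed in the mRNA-seq files: *Cldn11*, *Tjp1* and *F11r* of tight junctions, the cadherins *Cdh1*, *Cdh2*, *Cdh11* and *Cdh13*, the cadherin-bound catenin *Ctnnd1*, and the gap junction gene *Gja1*. They were chosen by name, and the choice was made with their levels in control and IL-4 cultures already known, so the differences between these groups are given as a description with no test. All 9 were found in the files, and all 9 passed the filter on low counts, *Cldn11* only through its IL-4 libraries.

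The cells were adipocyte precursors (APs), the stromal cells of fat that can become adipocytes. Per the study's methods they came from the subcutaneous white adipose tissue of C57BL/6J mice, were depleted of cells bearing CD45 (blood cells) and CD31 (endothelial cells), enriched for the surface protein SCA-1 and grown in medium with serum. The control group is labelled only as control, and the IL-4 group received interleukin-4, a cytokine of type 2 immune responses, from the day after seeding. mRNA was sequenced on day 4 in 3 control libraries (replicates 1 to 3) and 3 IL-4 libraries (replicates 4 to 6), and small RNA on day 2 in 2 libraries of each group. The sources used here do not say whether the mRNA-seq libraries came from separate animals or cultures, so a p-value measures the spread between these libraries, which may be technical. The dose of IL-4 and the age and sex of the mice are not given in the sample labels.

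A cadherin reaches across the gap between cells and binds a cadherin of the neighbouring cell, while its tail binds catenins that tie it to actin. Epithelial cells classically carry E-cadherin (*Cdh1*), and mesenchymal cells such as fibroblasts carry N-cadherin (*Cdh2*) and cadherin-11 (*Cdh11*). Claudins seal the space between cells at tight junctions, where ZO-1 (*Tjp1*) is the scaffold under the membrane, and connexins form channels between the cytoplasms of neighbours.

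The 6 mRNA-seq libraries held 28526782 to 29057787 expected counts each. Levels are given as FPKM, fragments per kilobase of transcript and 1000000 mapped fragments, which allows genes of different length to be compared. FPKM is scaled to library totals, without the TMM (trimmed mean of M-values) factors used for the fitted fold changes. With library totals the median log2 fold change of all genes was -0.17. FPKM ratios of IL-4 to control therefore lie lower than the fitted values. Control replicate 3 and IL-4 replicate 6 stood apart from the others of their group by transcript length. Among genes with at least 100 normalized counts, the median of the 2101 genes over 5000 bases lay 0.16 below the other 2 controls in control replicate 3 and 0.34 below the other 2 IL-4 libraries in IL-4 replicate 6, on the log2 scale, while the 1748 genes under 1500 bases lay 0.16 and 0.32 above. The AP label was set beside 14 markers, which summed to 9185 to 9611 FPKM in controls and 12596 to 13701 FPKM with IL-4. The most abundant were *Col3a1*, *Col1a1* and *Col1a2*, genes of fibrillar collagens, with control means of 2181 to 3307 FPKM. The sum is thus mainly that of collagens. With edgeR at an adjusted p under 0.05, 8 of the 14 rose. Among them were *Pdgfra* (55.3 to 71.4 FPKM), *Cd34* (3.37 to 30.3 FPKM) and *Pi16* (0.787 to 11.4 FPKM). In the same test 3 fell, *Pdgfrb* (190 to 107 FPKM), *Lum* (23.6 to 13.7 FPKM) and *Dlk1* (1.55 to 0.867 FPKM). *Dpp4* was low in both groups (0.307 and 0.38 FPKM) and gave no call. Genes known from macrophages were abundant too, as given below.

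*Cldn11*, which encodes claudin-11, a strand-forming protein known from myelin and from Sertoli cells of the testis, went from near absence to one of the more abundant of these mRNAs. Its expected counts were 4, 2 and 14 in control replicates 1, 2 and 3, and 2733, 2841 and 3558 in IL-4 replicates 4, 5 and 6. All IL-4 libraries lay far above all controls, and among the controls replicate 3 was the highest. The level was 0.13 ± 0.123 FPKM (SD, n = 3) in controls and 58.1 ± 8.34 FPKM (SD, n = 3) with IL-4. Mean normalized counts were 511-fold higher with IL-4, and the fitted log2 fold change was 8.96 (SE 0.28). It was 10.07 without control replicate 3, a move larger than that SE. That library also held the most reads of the controls for *Chil3*, *Retnla* and *Arg1*. These were the 3 most abundant of 14 listed genes that macrophages express after IL-4. Control replicate 3 had 77, 18 and 169 expected counts of them, against at most 9, 2 and 64 in the other 2 controls. Other genes of that list went either way. In control replicates 1, 2 and 3, *Mgl2* had 10, 11 and 21 counts and *Irf4* had 5, 14 and 12. The part of cells that express these genes in the *Cldn11* count of control replicate 3 was not tested. *Cldn11* lies at chr3:31149920-31164326 (GRCm38).

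*Cdh1*, the gene of E-cadherin, was also low in controls and higher with IL-4. The controls read 0.34, 0.28 and 0.26 FPKM, against 5.31, 5.80 and 5.62 FPKM after IL-4. The groups did not overlap, and the spread within each was small beside the gap. The level was 0.293 ± 0.0416 FPKM in controls and 5.58 ± 0.248 FPKM with IL-4 (SD, n = 3 each), mean normalized counts were 21.5-fold higher, and the fitted log2 fold change was 4.42 (SE 0.11). With each library left out in turn it was 4.34 to 4.53.

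*Gja1* encodes connexin 43, the gap junction protein of many connective tissue cells, and also had a log2 fold change over 1. Controls gave 20.5, 20.9 and 21.1 FPKM, and IL-4 libraries 70.7, 72.4 and 69.7 FPKM. This was the tightest of the differences, since no library lay more than 0.08 from the mean of its 2 fellows on the log2 scale. Mean normalized counts were 3.83-fold higher with IL-4, with a fitted log2 fold change of 1.94 (SE 0.06). *Gja1* lies at chr10:56377300-56390419 (GRCm38).

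**Figure D1:**
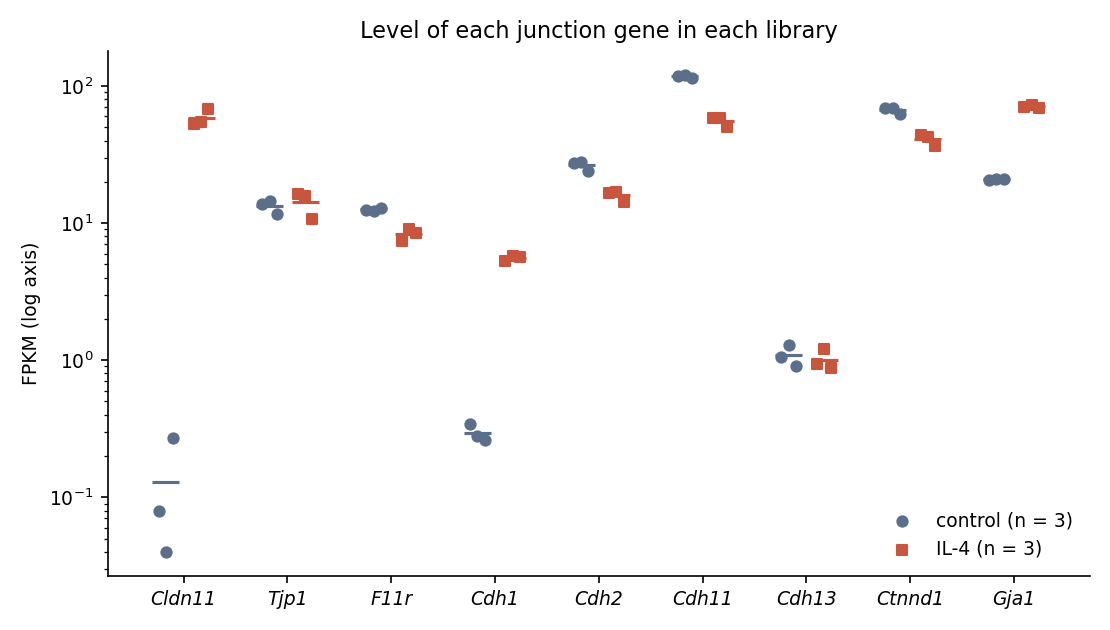
FPKM of the 9 genes on a log axis in each control (circles) and IL-4 (squares) library, with bars at the group means. *Cldn11*, *Cdh1* and *Gja1* lie higher in every IL-4 library than in any control, *F11r*, *Cdh2*, *Cdh11* and *Ctnnd1* lie lower, and *Tjp1* and *Cdh13* overlap.

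*Cdh11* was the most abundant member in controls and the mesenchymal cadherin that was lowest relative to controls after IL-4. Controls gave 119, 121 and 113 FPKM, against 58.9, 58.5 and 50.2 FPKM with IL-4. Every IL-4 library lay below every control. Mean normalized counts were 1.87-fold higher in controls, and the fitted log2 fold change was -0.90 (SE 0.09). *Cdh2* gave 27.2, 28.0 and 24.1 FPKM in controls and 16.7, 16.9 and 14.2 FPKM with IL-4. Its groups did not overlap either, with a log2 fold change of -0.56 (SE 0.10). *Cdh13* encodes T-cadherin, which has no cytoplasmic tail and is held in the membrane by a lipid anchor. At 1.05, 1.29 and 0.91 FPKM in controls and 0.94, 1.21 and 0.88 FPKM with IL-4 it was the one cadherin of the 4 whose groups overlapped, with a log2 fold change of 0.08 (SE 0.18) whose sign turned under other scalings and with single libraries left out.

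The mix of cadherin mRNA differed between the groups, with larger shares of *Cdh1* and *Cdh2* and a smaller share of *Cdh11* after IL-4. Over the 22 genes named *Cdh* that are listed in the files, the summed level was 173 ± 7.28 FPKM in controls and 87.5 ± 7.35 FPKM with IL-4 (SD, n = 3 each). These sums carry the FPKM scaling described above, which lowers the IL-4 values relative to controls. *Cdh11* made up 68.1 ± 0.632% of that sum in controls and 63.8 ± 0.55% with IL-4, and *Cdh2* 15.3 ± 0.559% and 18.2 ± 0.169%. *Cdh1* made up 0.195, 0.156 and 0.158% of it in controls and 5.81, 6.29 and 7.11% with IL-4. The ratio of *Cdh2* to *Cdh1* FPKM was 90.9 ± 10.1 in controls and 2.86 ± 0.308 with IL-4, so N-cadherin mRNA still exceeded E-cadherin mRNA in every library. P-cadherin (*Cdh3*), which is no member, followed *Cdh2* in controls with 10.7 ± 0.253% and had 6.25 ± 0.213% with IL-4.

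**Figure D2:**
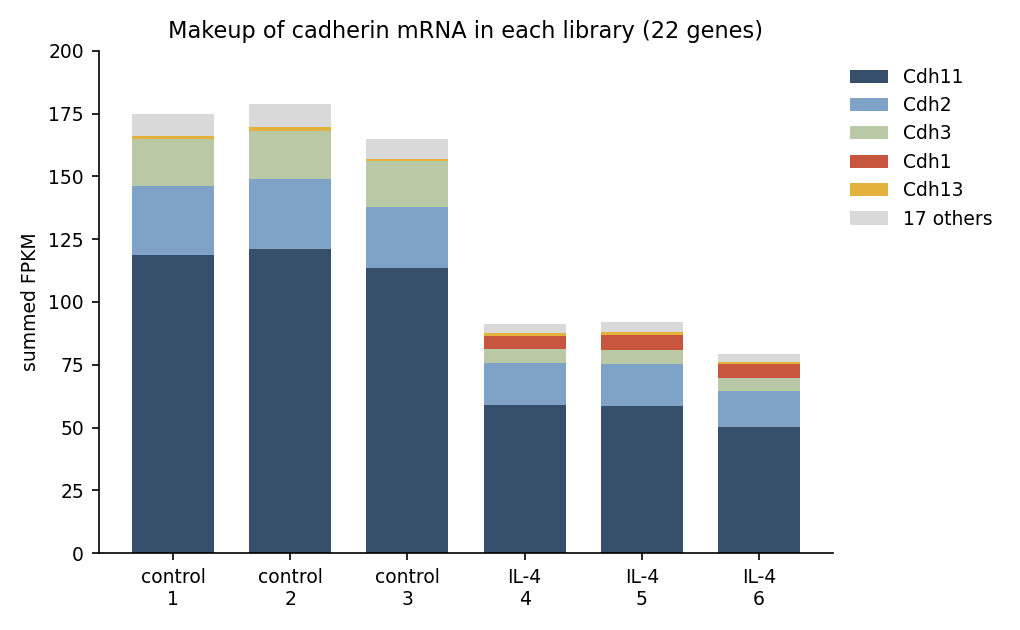
Summed FPKM of the 22 listed cadherin genes in each library, divided into *Cdh11*, *Cdh2*, *Cdh3*, *Cdh1*, *Cdh13* and the others. The 3 control bars reach 165 to 179 FPKM and the 3 IL-4 bars 79.1 to 92.2 FPKM, with a visible *Cdh1* band only in the IL-4 libraries.

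*Ctnnd1* encodes p120-catenin, which binds the tail of classical cadherins near the membrane and keeps them at the cell surface. Its level was 68.9, 68.9 and 62.2 FPKM in controls and 43.6, 42.8 and 36.7 FPKM with IL-4, so it was lower in every IL-4 library, with a log2 fold change of -0.53 (SE 0.09). *F11r* encodes junctional adhesion molecule A, an immunoglobulin-type protein of tight junctions. It gave 12.5, 12.3 and 12.9 FPKM in controls and 7.43, 9.07 and 8.46 FPKM with IL-4. These groups did not overlap, and the log2 fold change was -0.42 (SE 0.08).

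*Tjp1* gave 13.8, 14.4 and 11.7 FPKM in controls and 16.3, 15.7 and 10.8 FPKM with IL-4. The groups overlapped, and control replicate 3 and IL-4 replicate 6 were each the lowest of their group. The log2 fold change was 0.27 (SE 0.17), and 0.36 without both of these libraries. With a mean transcript length of 6926 bases *Tjp1* is the longest of the 9 mRNAs, and IL-4 replicate 6 lay 0.62 below the other 2 IL-4 libraries for it. *Cdh2*, *Cdh11* and *Ctnnd1*, of 4858 to 5178 bases, lay 0.27 to 0.29 below in that library, and *F11r*, of 2482 bases, lay at 0.00. The order by length was not strict, since *Cdh1*, of 4447 bases, lay at -0.02 and *Cdh13*, of 3913 bases, at -0.31. The part of this length difference between libraries in the members' values was not tested beyond leaving the libraries out: without both, the log2 fold changes were -0.85 for *Cdh11*, -0.54 for *Cdh2*, -0.49 for *Ctnnd1* and -0.41 for *F11r*.

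**Figure D3:**
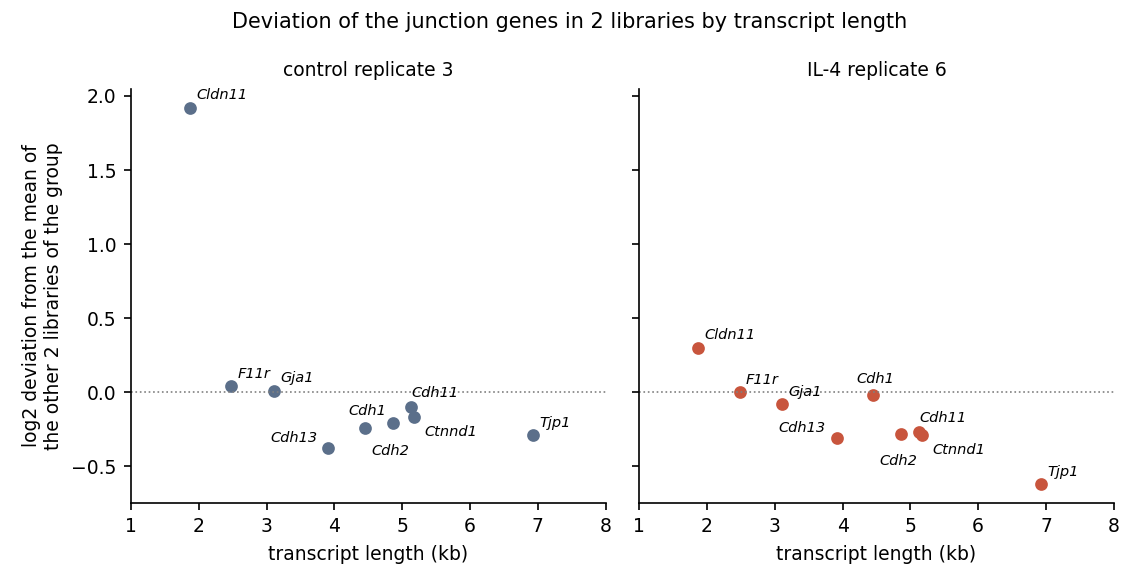
Log2 deviation of each member in control replicate 3 (left) and IL-4 replicate 6 (right) from the mean of the other 2 libraries of its group, against transcript length in kilobases. The longest mRNA, *Tjp1*, lies at -0.29 and -0.62, and the shortest, *Cldn11*, at 1.92 and 0.30.

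In all, 3 of the 9 members did not overlap between groups and were higher with IL-4, 4 did not overlap and were lower, and 2 overlapped. Among all 14009 genes fitted, 25.2% did not overlap and were higher and 25.3% did not overlap and were lower. Since the members were selected on these values, nothing is read from their count. Their median log2 fold change was 0.08, beside 0.0026 over all genes fitted.

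**Figure D4:**
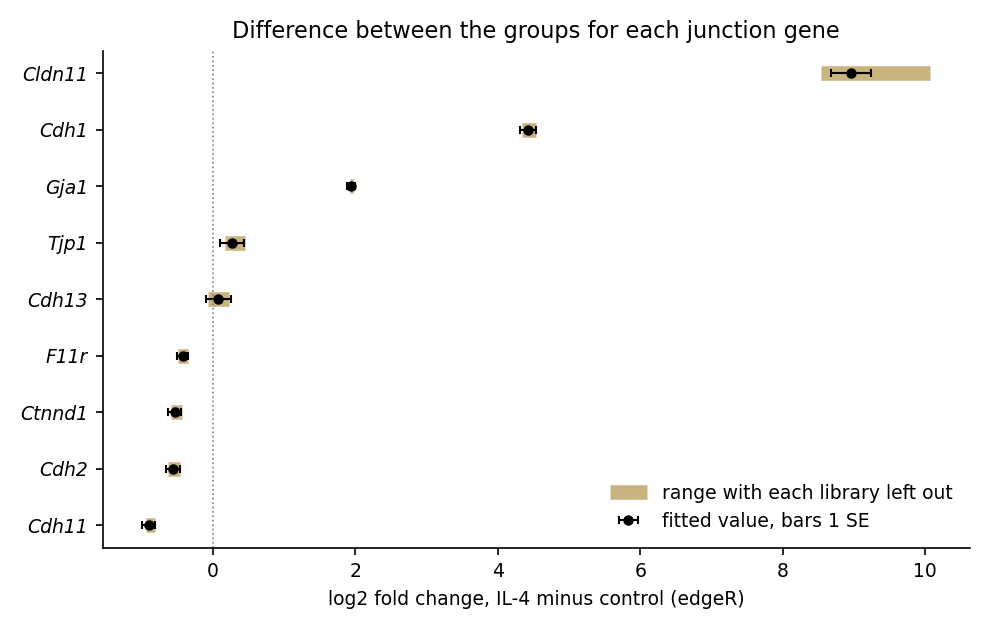
Fitted log2 fold change (IL-4 minus control) of each member with its SE, over the range reached with each of the 6 libraries left out in turn. *Cldn11* (8.96), *Cdh1* (4.42) and *Gja1* (1.94) lie above 1, and *Cdh11* is the lowest at -0.90.

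The order of the members by level differed between the groups. In controls it ran from *Cdh11* (118 FPKM) over *Ctnnd1* (66.7), *Cdh2* (26.4), *Gja1* (20.9), *Tjp1* (13.3), *F11r* (12.6), *Cdh13* (1.08) and *Cdh1* (0.293) to *Cldn11* (0.13 FPKM). Neighbours in this order overlapped between libraries for *Tjp1* and *F11r* and for *Cdh1* and *Cldn11*. With IL-4, *Gja1* (70.9 FPKM) was first, before *Cldn11* (58.1), *Cdh11* (55.9), *Ctnnd1* (41.0), *Cdh2* (15.9), *Tjp1* (14.3), *F11r* (8.32), *Cdh1* (5.58) and *Cdh13* (1.01 FPKM). Here *Cldn11* overlapped *Cdh11*, and *Cdh2* overlapped *Tjp1*. *Cldn11* thus moved from last place to second, next to *Cdh11*.

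For each member, the genes with the most similar course over the 6 libraries were sought among 11419 genes with a mean of at least 100 normalized counts, by the root mean square difference of centred log2 normalized counts. For *Cldn11* these were *Arg1* (0.325), the gene of arginase 1, *Il13ra2* (0.444), a decoy receptor for interleukin-13, and *Mgl2* (0.51), a C-type lectin of macrophages and dendritic cells. *Cdh1* was nearest to *Doc2b* (0.119), *Sparcl1* (0.156) and *Hs3st1* (0.157). *Gja1* was nearest to *Jun* (0.028), a subunit of the transcription factor AP-1, *Loxl3* (0.034), a lysyl oxidase, and *Abcd2* (0.034), a transporter of peroxisomes. *Cdh2* and *Ctnnd1* were in each other's list (0.026), and both lists held *Farp1*. *Tjp1* was nearest to *Col6a3* (0.02), *Tanc2* (0.035) and *Egfr* (0.037). *Cdh11* was nearest to *B4galt6* (0.034), *F11r* to *Atxn1* (0.033) and *Cdh13* to *Mars2* (0.06). The members were chosen on these same 6 libraries. A near gene is thus one with a like difference between the groups, as with *Gja1* (log2 fold change 1.94) and *Jun* (1.93). No link between such genes was tested.

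The other genes of cell junctions, 143 in 6 lists, were tested with edgeR's quasi-likelihood test. Of the 80 that passed the filter on low counts, 11 rose and 30 fell with IL-4 at an adjusted p under 0.05, that is 13.8% and 37.5%, beside 19.0% and 18.4% of all 14009 genes. The split depended on the scaling: with library totals in place of TMM (trimmed mean of M-values) factors, which moved the median of all genes to -0.17, 8 rose and 47 fell, beside 1704 and 4963 of all genes. With a log2 fold change beyond 1 as well, 5 rose and 18 fell, beside 5.77% and 5.26% of all genes. The median log2 fold change of the 80 genes was -0.32. Some genes of few counts, *Cldn1* and *Pard6b* among them, passed the filter only through their controls, and *Dsc2* only with its IL-4 libraries. For such genes the filter favoured the direction found.

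Of 19 further cadherins listed, 9 were tested. Of these 9, 1 rose and 7 fell, with a median log2 fold change of -1.33. *Cdh8* and *Cdh23* (14, 20 and 14 counts in controls, 7, 6 and 4 with IL-4) passed the filter only through their controls. Being tested thus favoured a fall for these genes. *Cdh6*, or K-cadherin, rose from 16, 15 and 13 to 96, 109 and 82 expected counts (log2 fold change 2.85, edgeR adjusted p = 2.07e-05). *Cdh3* fell from 18.5 to 5.46 FPKM (log2 fold change -1.58, edgeR adjusted p = 1.51e-06). VE-cadherin (*Cdh5*), known from endothelium, fell by 1.60 on the log2 scale (edgeR adjusted p = 4.16e-05). The neuronal type *Cdh10* and *Cdh8* fell by 2.45 and 2.01 from at most 101 and 39 expected counts in a control (edgeR adjusted p = 0.00015 and 0.00801).

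Among catenins, nectins and adaptors of adherens junctions, 1 of 17 tested genes rose and 8 fell, with a median of -0.36. The 2 most abundant catenins of this list gave no call: β-catenin (*Ctnnb1*) had 198 FPKM in controls and 194 FPKM with IL-4 (log2 fold change 0.15, edgeR adjusted p = 0.113), and α-catenin (*Ctnna1*) 92.2 and 75.2 FPKM (-0.12, edgeR adjusted p = 0.154). These 2 were named after their values were seen. *Arvcf*, a relative of *Ctnnd1* in the p120 family, rose by 1.04 (edgeR adjusted p = 0.000538). *Ctnna2* and *Ctnnd2*, catenins known from neurons, fell by 2.09 and 1.72 at under 1 FPKM (edgeR adjusted p = 0.000144 and 0.00436). *Nectin4*, an immunoglobulin-type adhesion protein, fell by 1.28 (edgeR adjusted p = 0.0273).

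Among claudins and tight junction genes other than the members, 5 of 26 tested rose and 8 fell, with a median of -0.14. *Jam2*, a relative of *F11r*, rose from 2.45 to 4.94 FPKM (log2 fold change 1.18, edgeR adjusted p = 0.000105), opposite in sign to the *F11r* value. *Cldn1* fell by 1.90 from at most 24 expected counts in a control (edgeR adjusted p = 0.00817). The polarity gene *Pard6b* fell by 2.78 from at most 22 counts (edgeR adjusted p = 0.00314), the scaffold gene *Magi1* from 3.58 to 1.31 FPKM (log2 fold change -1.28, edgeR adjusted p = 6.53e-05), and the endothelial adhesion gene *Esam* by 1.20 (edgeR adjusted p = 0.00583). Occludin (*Ocln*), a defining protein of epithelial tight junctions, had at most 3 expected counts in any library.

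Of 7 further connexins and pannexins tested, 2 fell and the other 5 did not pass (median -0.11). *Gjb2* (connexin 26), named after its values were seen, fell from 4.91 to 2.43 FPKM (log2 fold change -0.84, edgeR adjusted p = 0.00088). Among 6 desmosome genes tested, 2 rose (median 0.05), and *Dsc2*, a desmosomal cadherin, had the larger rise (1.91, edgeR adjusted p = 0.00137) from 0.0867 to 0.303 FPKM. Of 15 tested protocadherin, Fat, Dachsous and flamingo cadherins, 2 rose and 5 fell (median -0.40). *Pcdh10* rose from 37, 41 and 34 to 392, 332 and 318 expected counts (log2 fold change 3.37, edgeR adjusted p = 1.42e-06). *Pcdh18* fell from 8.96 to 2.45 FPKM (-1.69, edgeR adjusted p = 3.9e-06), and *Fat3*, *Pcdh12* and *Pcdh20* fell by 1.81, 1.35 and 1.30 at lower levels.

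**Figure D5:**
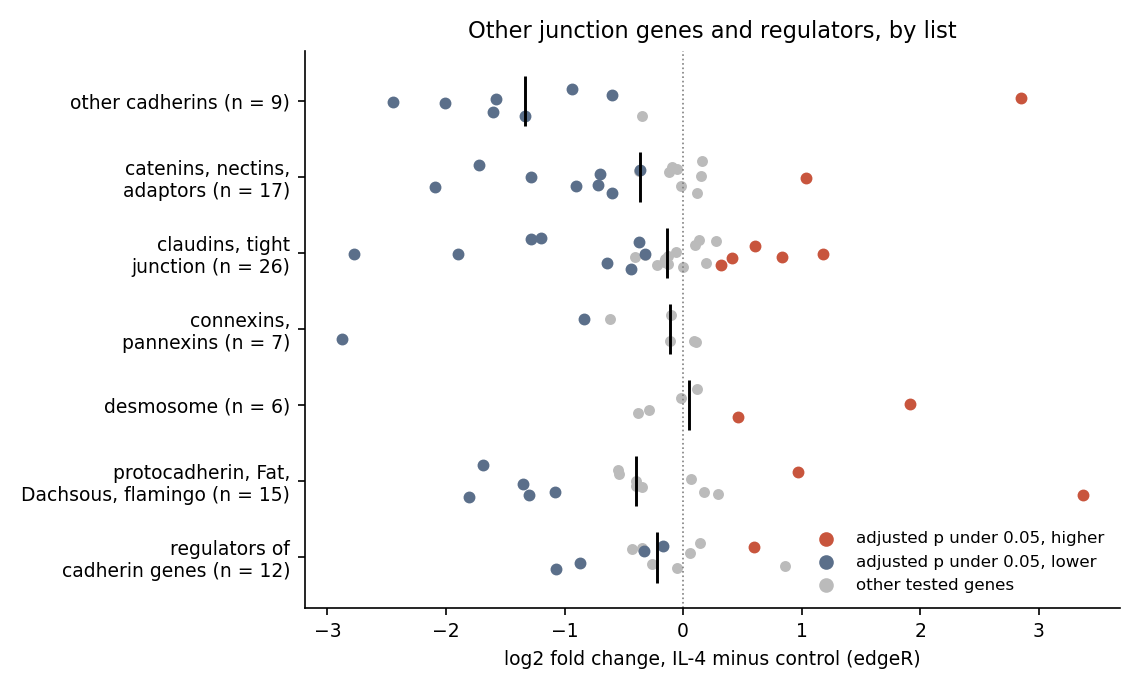
Log2 fold change (IL-4 minus control) of each tested gene in the 6 junction lists and the list of regulators of cadherin transcription, with a black bar at the median of each list. The bar of the other cadherins lies lowest, at -1.33, with 7 genes called lower (blue) and 1 called higher (red).

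Several transcription factors bind E-box motifs of the *Cdh1* gene and are known as its repressors, chiefly the Snail and ZEB families. Of 12 regulators tested, 1 rose and 4 fell, with a median log2 fold change of -0.22. That is 8.33% and 33.3%, beside 19.0% and 18.4% of all genes. *Snai1* (Snail) fell from 1668, 1549 and 1955 to 667, 711 and 831 expected counts, without overlap (log2 fold change -1.07, SE 0.10, edgeR adjusted p = 9.76e-05). *Zeb2*, another repressor of *Cdh1*, rose from 27.9 to 37.6 FPKM (log2 fold change 0.60, edgeR adjusted p = 0.0036). *Snai2* (0.14, edgeR adjusted p = 0.0891) and *Zeb1* (-0.26, edgeR adjusted p = 0.129) did not pass. Thus *Snai1* was lower and *Zeb2* higher, while *Snai2* and *Zeb1* gave no call. The part of these repressors in the *Cdh1* value was not tested. *Esrp1*, a splicing regulator of epithelial cells, had at most 7 expected counts in any library. Its relative *Esrp2* fell from 1.06 to 0.513 FPKM (log2 fold change -0.87, edgeR adjusted p = 0.00511). *Twist2* (-0.33, edgeR adjusted p = 0.00791) and *Tcf4* (-0.17, edgeR adjusted p = 0.0304) were also called lower. *Esrp2*, *Twist2* and *Tcf4* were named after their values were seen.

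Markers of other cells moved between the same groups. Of 18 macrophage markers, 17 fell and the other did not pass, and their summed level was 4818 to 6309 FPKM in controls and 1891 to 2605 FPKM with IL-4, led by *Lyz2*, *C1qa* and *C1qb*. Of 14 listed genes that macrophages express after IL-4, all 10 tested rose. Some of them, such as *Pdcd1lg2* (0 counts in each control) and *Ccl24* (at most 2), passed the filter only through their IL-4 libraries. For these, being tested fixed the direction. Among the untested genes, *Ccl17* went from 6, 4 and 7 counts in controls to 1, 0 and 3 with IL-4. *Alox15* went from 6, 7 and 7 to 3, 6 and 5, *Ccl22* from 0, 3 and 6 to 9, 6 and 17, and *Dcstamp* from 3, 1 and 1 to 7, 6 and 10. The 14 summed to 84.5 to 109 FPKM in controls and 3648 to 4879 FPKM with IL-4. E-cadherin is known from macrophages exposed to IL-4 as well as from epithelia. In bulk RNA, fewer cells of a type and less RNA per cell cannot be told apart. Epithelial and mesothelial markers summed to 12.5 to 14.8 FPKM in controls and 13.2 to 16.1 FPKM with IL-4, with 1 higher (*Krt19*, log2 fold change 0.76) and 2 lower of 8 tested of 15, and *Ocln*, *Upk3b* and *Lrrn4* had at most 3 expected counts in any library. Markers of Schwann cells and oligodendrocytes, where claudin-11 is known from myelin, summed to 16.0 to 16.9 FPKM in controls and 6.82 to 7.55 FPKM with IL-4, with 5 of 7 tested lower, and *Mog* had at most 3 counts. Of 12 endothelial markers, 2 rose, *Vwf* (0.8 to 5.97 FPKM) and *Tek* (2.92 to 4.56 FPKM), and 7 fell, *Cdh5* and *Esam* among them. The 12 summed to 19.2 to 20.1 FPKM in controls and 17.9 to 19.7 FPKM with IL-4. Lymphocyte markers summed to 2.77 to 3.24 FPKM in controls and 4.55 to 5.03 FPKM with IL-4, with 1 higher and 1 lower of 3 tested of 10, and the B cell genes *Ms4a1*, *Cd79a* and *Cd79b* had at most 3 expected counts in any library. The part of any of these cells in the values of the members was not tested.

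Mature miRNAs pair through bases 2 to 8, the seed, with sites in 3′ UTRs. The miR-200 family and miR-205-5p are known to lower *Zeb1* and *Zeb2*, and miR-206-3p and miR-1a-3p to lower *Gja1*. miR-1a-3p was not analysed here. The mature sequences of the most read members of each seed group with reads in these libraries follow, 5′ to 3′ from RefSeq, with the seed in capitals.
miR-206-3p: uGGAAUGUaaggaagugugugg
miR-141-3p: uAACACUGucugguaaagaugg
miR-200b-3p: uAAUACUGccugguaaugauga
miR-205-5p: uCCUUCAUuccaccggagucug

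On day 2, miR-206-3p was read 267 times in each control library, and 155 and 294 times with IL-4, which is 11.2, 8.34, 5.54 and 9.17 per 1000000 reads of mature miRNAs. The groups overlapped, and the log2 fold change was -0.53 (SE 0.29, edgeR adjusted p = 0.845). miR-141-3p had 34 and 34 reads in controls and 44 and 62 with IL-4 (log2 fold change 0.39, SE 0.35, edgeR adjusted p = 0.976). The others were too rare to test: miR-200a-3p, miR-200b-3p, miR-200c-3p, miR-429-3p and miR-205-5p had at most 10 reads in a library that held 23790821 to 32061504 in all. In this fit, which has no replicate block, neither of the 2 tested miRNAs passed at an unadjusted p under 0.05, beside 6.09% of the 640 miRNAs tested. DESeq2 called none of them either.

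Seed matches were searched in the longest annotated 3′ UTR (RefSeq, GRCm38) of *Cldn11*, *Ctnnd1*, *Tjp1*, *Gja1* and *F11r*. *Gja1* held 2 matches to miR-206-3p, which 8.91% of 19038 3′ UTRs held at least once, and 2 to the seed of miR-200a-3p and miR-141-3p (15.9%). The first pair of sites is shown because a match to each seed lies within the same stretch, at chr10:56389160-56389187, and the second miR-206-3p match lies at chr10:56390284-56390305. Capitals mark the match.
*Gja1*, miR-206-3p, first: ccccgctaaaaaACATTCCagt
*Gja1*, miR-141-3p, first: taaaaaacattcCAGTGTTtaa
*Gja1*, miR-206-3p, second: ctaatttgtttgACATTCCatg

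*Cldn11* held 1 match to the seed of miR-200b-3p, miR-200c-3p and miR-429-3p (12.2% of 3′ UTRs) and 1 to that of miR-205-5p (9.79%), *Tjp1* held 1 to miR-205-5p, and *Ctnnd1* held 1 to miR-206-3p. Among the miRNAs of the H19X cluster on the X chromosome, *F11r* held 2 matches to miR-322-5p (19.0% of 3′ UTRs) and 1 to miR-351-5p (12.1%), and the other 4 genes held none to any of the 6 cluster miRNAs searched. miR-322-5p had 57719 and 40177 reads in controls and 156462 and 130498 with IL-4 (log2 fold change 1.30, SE 0.37, edgeR adjusted p = 0.45). miR-351-5p had 84702 and 94259 reads in controls and 186608 and 244572 with IL-4 (log2 fold change 1.02, SE 0.2, edgeR adjusted p = 0.107). The groups did not overlap for either. The paper counts both among the miRNAs raised by IL-4 on day 2, with its own processing, a fold-change threshold and an unadjusted p under 0.05. It also reports a rise of both by qPCR after 4 days. Unadjusted, the edgeR p here was 0.00985 for miR-322-5p and 0.0015 for miR-351-5p. A match is a description of these letters and not proof of a site. The 2 *F11r* matches lie at chr1:171464164-171464185 and chr1:171464187-171464208.
miR-322-5p: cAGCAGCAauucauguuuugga
*F11r*, first: tccgtagcctccTGCTGCTgcg
*F11r*, second: gggcgaggaaggTGCTGCTgtg

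RefSeq promoters of 250 bases before to 50 after the start (GRCm38) were matched for 5 of the 9 members, *F11r*, *Ctnnd1* (with 2 starts), *Cldn11*, *Tjp1* and *Gja1*. *Cdh1*, *Cdh2*, *Cdh11* and *Cdh13* had no entry. None of these 6 promoters held TTC and GAA with 4 bases between, the palindrome that STAT6, the transcription factor of IL-4 signalling, prefers, or TTCNNNGAA, the palindrome with 3 bases between (6.95% and 8.3% of 32851 promoters held them). On a palindrome both strands read alike. *F11r* held the only E-box CACCTG or its reverse CAGGTG (20.2% of promoters). The AP-1 motif TGANTCA, also a palindrome and held by 7.81% of promoters, lay in 2 of the 6, those of *F11r* and *Gja1*. The windows of all E-box and AP-1 motifs found are shown. *Gja1* was higher and *F11r* lower with IL-4, and whether AP-1 acts on either gene was not tested. Capitals mark the motif, which starts 19 bases before the start of *Gja1* (chr10:56377270-56377299) and 122 and 109 bases before that of *F11r* (chr1:171437427-171437456 and chr1:171437441-171437470).
*Gja1*, AP-1 motif: ctccttccagtTGAGTCAgtggcttgaaac
*F11r*, E-box: agttcggggttgCACCTGcgtacggtgagt
*F11r*, AP-1 motif: cctgcgtacggTGAGTCActcatcggagct

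The *Cldn11* promoter held 24 CG dinucleotides, *Tjp1* 31, *F11r* 19 and *Gja1* 8, beside a median of 7.0 over all promoters, and the 2 starts of *Ctnnd1* held 30 and 3. Thus *Cldn11*, near absent in controls, and *Tjp1*, present in every library, both had promoters rich in CG.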

How the data were processed

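For mRNA-seq the authors removed low-quality reads with SOAPnuke, and Bowtie2 with RSEM gave them the level of each gene. The submitters' processing notes also name HISAT, StringTie and mm10. The deposited values are unnormalized expected counts and, beside them, FPKM, for which the authors divided by transcript length and depth. For small RNA, the deposited read counts per miRNA precursor and arm come from the authors' use of the miRDeep2 Quantifier with miRBase, and where several precursors share a mature miRNA the largest of its counts was used.

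Genes not listed for a library were taken as 0, and 1 row without a gene (at most 0.000225% of a library) was left out. Expected counts, rounded to whole numbers, were passed through filterByExpr (minimum count 10, minimum total 15), scaled with TMM and compared with the quasi-likelihood test of edgeR 4.0.16 in R 4.3.3, with Benjamini-Hochberg adjustment over all genes or all miRNAs tested. To obtain normalized counts, each count was divided by its library's TMM-scaled size, and the mean scaled size was multiplied in. The SE of a log2 fold change was taken as its size divided by the square root of the test's F statistic. Alternatives were DESeq2 1.42.0, upper-quartile scaling, library totals, no filter on low counts, limma 3.58.1 after log2(FPKM + 1) or log2(FPKM + 0.1), and each library left out in turn. Leaving out control replicate 3 and IL-4 replicate 6 together was added after seeing the data. The edgeR steps were tested on simulated data. Figures and tables used Python 3.11.15 with pandas 2.3.3 and matplotlib 3.10.9.

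The members and lists were chosen with earlier results of these data known. Named beside the members were, from each list, up to 4 genes that rose and 4 that fell with a log2 fold change beyond 1 and an adjusted p under 0.05, in order of size, and *Zeb1*, *Zeb2*, *Snai1* and *Snai2*, and for each member up to 3 genes of similar course. A few single genes of the lists are not reported here by name. Intervals of counts were not computed, and the counts in each library limit the precision of *Cldn11* in controls and of the rare miRNAs.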

Additional observations from a re-analysis of the deposited data

How the results depend on the processing

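The direction held under every alternative for *Cldn11*, *Cdh1*, *Gja1*, *Tjp1*, *Cdh11*, *Cdh2*, *Ctnnd1* and *F11r*, and did not for *Cdh13* (-0.10 to 0.23). By limma on log2(FPKM + 1), which understates changes of low genes, the log2 fold change was 5.71 for *Cldn11* and 2.35 for *Cdh1*. It was 1.72 for *Gja1*, which is not low. On log2(FPKM + 0.1) the log2 fold change was 3.86 for *Cdh1*, -1.08 for *Cdh11*, 1.76 for *Gja1* and -0.59 for *F11r*. With library totals, a scaling that FPKM shares, it was -1.08 for *Cdh11*, 1.77 for *Gja1* and -0.59 for *F11r*. The other 107 of the 117 values under an alternative moved by less than 1 SD, a measure that is not the SE of the fit. *Cldn11* without control replicate 3 is among these 107, although its move from 8.96 to 10.07 was larger than its SE of 0.28. With each library left out in turn, *Cldn11* ranged from 8.54 to 10.07, the highest without control replicate 3.

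Of the other junction genes, 11 rose, but 6 and 7 by limma with a pseudocount of 1 and 0.1, 8 to 16 with a library left out, and 5 with a log2 fold change beyond 1. In the same fit 30 fell, but 47 with library totals, 25 to 30 with a library left out, and 18 beyond 1. Of the regulators 5 were called, but 8 with library totals and 8 by limma with either pseudocount, and 4 to 6 with a library left out. The causes were not tested, except that requiring a larger change can only lower a count. Of 9 members, 1 kept its place in the IL-4 order by normalized counts not divided by length.

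No paired analysis was possible for mRNA-seq because its groups share no replicate numbers. In small RNA the 2 replicate numbers are shared and nothing says that they mark a pair. With a replicate block 0 of the listed miRNAs were called, as without it, and miR-206-3p had an unadjusted p of 0.00892 (0.108 without the block) and an adjusted p of 0.0984 by edgeR's quasi-likelihood test, while 31 of the 640 miRNAs were called instead of 0. The deviations of the libraries numbered 1 correlated at 0.58 across miRNAs. Depth limits *Cldn11* in controls, where 2 to 14 counts stand behind each value, and the miR-200 family.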
